A study of Mus musculus with 2 samples.

Results

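A set of 8 genes of histone acetylation, of 21041 genes in the deposited table, was followed in mouse double-positive (DP) thymocytes of WT and *Cxxc1*-deficient mice. Of these, 6 encode lysine acetyltransferases (*Crebbp*, *Ep300*, *Kat2a*, *Kat2b*, *Kat5* and *Kat6a*) and 2 encode BET proteins (*Brd2* and *Brd3*). The rule that picks them uses their names, and they were proposed with earlier results of these data known. DP thymocytes are the CD4+CD8+ stage of T cell development in the thymus. *Cxxc1* encodes a CXXC zinc finger protein that binds unmethylated CpG DNA and belongs to the Setd1 complexes, which trimethylate lysine 4 of histone H3. The study asked how its loss changes that mark and transcription during thymocyte development.

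Messenger RNA was sequenced in 1 library per genotype, 2 libraries in all. The control, called WT, came from *Cxxc1* fl/fl mice without Cre. The other library came from *Cxxc1* fl/fl mice carrying hCD2-Cre, a transgene that deletes the floxed exons 4 and 5 in early thymocytes and in other immune cells. Its title calls it a knockout while its genotype field reads *Cxxc1*+/-, so it is called *Cxxc1*-deficient, or deficient, below. Both groups carry the floxed allele, which was made in strain 129 embryonic stem cells and bred onto C57BL/6 mice. The mice were 3 to 4 weeks old, and how many contributed to each library is not given in the sources used here.

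Acetyltransferases move an acetyl group from acetyl-CoA to lysines of histones and other proteins, and bromodomain proteins bind the acetylated lysine. CBP (*Crebbp*) and p300 (*Ep300*) are large, closely related coactivators that acetylate histone H3 at enhancers and promoters. GCN5 (*Kat2a*) and PCAF (*Kat2b*) are alternative catalytic subunits of the SAGA and ATAC complexes. TIP60 (*Kat5*) and MOZ (*Kat6a*) belong to the MYST family, TIP60 within the NuA4 complex and MOZ in a complex with BRPF and ING proteins. BET proteins carry paired bromodomains and link acetylated chromatin to transcription elongation.

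Expression is given as the deposited normalized value, which is scaled for gene length, with a factor that differs between the libraries and is not named in the sources used here, and rounded to a whole number, so that levels can be compared between genes on that scale. Each genotype has a single library, so differences could not be checked against replicates, and neither tests nor p-values are given. A ratio is the *Cxxc1*-deficient value over the WT value, and a gene is counted as lower or higher by at least 2-fold as a description of these libraries. Approximate reads behind each value were worked out from the steps between low values of short genes, and the 95% intervals from these reads cover counting error only. In bulk RNA, fewer cells of a type and less RNA per cell cannot be told apart.

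The table corresponds to about 1430959 reads on 20224 genes in WT and 744227 in the deficient cells, and 1 read on a gene of 1 kb is worth 4.06 and 4.70. The deposited values summed to 1551994 and 981677, so the deposited scale does not bring the libraries to the same total. Folds between the libraries and their intervals below hold on that scale only, and the direction of several genes depended on it. *Cxxc1* itself was 91 in WT and 50 in the deficient cells, a ratio of 0.549 (0.338 to 0.877), on a gene-level value that includes exons that are not deleted. By quantitative PCR the study found its mRNA nearly absent from deficient DP cells, and by western blot it reports loss of the protein. It was lower in 7 of 8 settings and higher by 0.13 on the log2 scale when well-expressed genes, those averaging 100 or more over the 2 libraries, were set to the same median, and its 50 lay under the 95th percentile of olfactory receptor genes there (57). All 8 DP marker genes (*Cd4*, *Cd8a*, *Cd8b1*, *Rag1*, *Rag2*, *Cd3e*, *Ptcra* and *Themis*) were detected in both libraries and all were lower in the *Cxxc1*-deficient one. At least 2-fold lower were 6 of them, beside 17.4% of all genes and 56.8% of well-expressed ones. Their summed values were 35495 for WT and 9945 for the other library. *Cd4* was 2728 and 1257, and *Rag1* was 20778 and 5058. The 3 genes listed as markers of the earlier DN3 stage (*Il2ra*, *Notch1* and *Notch3*) were at least 2-fold higher, beside 5.89% of all genes and 0.485% of well-expressed ones. Their sums were 243 and 700. *Ptcra*, which DN3 cells also express, was 79 and 44. Summed markers were 142 and 101 for B cells (4 genes), 75 and 65 for erythroid cells (4 genes, *Hba-a1* at 0 in both), 186 and 200 for macrophages and dendritic cells (5 genes), and 194 and 138 for thymic stroma (5 genes, *Krt8* at 4 and 0). Of 20 Y-linked genes, WT had 0 above 0 and the *Cxxc1*-deficient library 7, so sex and genotype cannot be told apart. The part of these differences in the values below was not tested.

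The sequence before the start of 6 of the 8 genes is shown, those of the p300/CBP, GCN5/PCAF and BET pairs, without the MYST genes. The Cxxc1 protein binds CpG, and the study found its signal enriched at the centres of CpG islands. It also reports that only a small share of Cxxc1 sites in DP thymocytes lay at CpG islands or promoters. Binding of Cxxc1 to the sequences below was not tested, and a CG count is not a measure of it. Each line gives the 100 bases directly before the RefSeq start farthest upstream, 5′ to 3′ on the gene's strand, in build GRCm38.p6, with every CG in capitals.
Crebbp, chr16:4213405-4213504, minus strand: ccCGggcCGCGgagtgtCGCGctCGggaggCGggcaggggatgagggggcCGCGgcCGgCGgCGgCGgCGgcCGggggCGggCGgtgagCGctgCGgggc
Ep300, chr15:81586114-81586213, plus strand: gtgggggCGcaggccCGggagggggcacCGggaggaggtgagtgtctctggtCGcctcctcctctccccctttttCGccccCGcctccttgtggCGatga
Kat2a, chr11:100712468-100712567, minus strand: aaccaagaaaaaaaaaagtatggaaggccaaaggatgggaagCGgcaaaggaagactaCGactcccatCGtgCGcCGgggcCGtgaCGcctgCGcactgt
Kat2b, chr17:53566871-53566970, plus strand: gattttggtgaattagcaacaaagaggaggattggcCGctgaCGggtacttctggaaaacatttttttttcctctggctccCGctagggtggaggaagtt
Brd2, chr17:34122608-34122707, minus strand: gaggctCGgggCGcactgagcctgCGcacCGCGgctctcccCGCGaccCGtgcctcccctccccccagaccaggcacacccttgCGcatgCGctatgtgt
Brd3, chr2:27475399-27475498, minus strand: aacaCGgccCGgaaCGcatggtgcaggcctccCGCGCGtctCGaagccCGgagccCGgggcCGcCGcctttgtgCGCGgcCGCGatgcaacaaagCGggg
*Crebbp* shows 19 CG and *Brd3* 16 in these 100 bases, against 3 in *Kat2b*. Over the 250 bases before the start, 7 of the 8 genes matched the RefSeq table, with a median of 25 CG, against 11 over all 15683 promoters of measured genes (quartiles 3 and 19) and 19 over the 1917 of well-expressed genes. *Crebbp* held 44 CG, a number reached by 0.663% of promoters, *Brd3* 37 (2.71%), *Brd2* 27 (10.8%), *Ep300* 25 (13.8%), *Kat5* 15 (38.5%), *Kat2a* 11 (50.1%) and *Kat2b* 6 (64.5%). These counts depend on the start that is taken. The coding start farthest upstream in GENCODE vM1 was counted first, and it gave 1 CG for *Brd3*, 44 for *Crebbp*, 24 for *Ep300*, 25 for *Brd2*, 18 for *Kat5*, 11 for *Kat2a*, 6 for *Kat2b* and 30 for *Kat6a*, a median of 18 over the same 7 genes and 21 over all 8, against 10 over 19554 promoters. The RefSeq starts were taken after these counts had been seen.

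Searched on both strands of the 250 bases, GGGCGG was found in 3 of the 7 promoters (*Crebbp*, *Ep300* and *Brd3*) and in 44.6% of all. CCAAT was found in 2 (*Kat2b* and *Kat5*; 36.3% of all) and CCGGAA in 2 (*Brd2* and *Brd3*; 15.5%). TATAAA was in 0 of the 7 and in 12.0% of all. A match is a run of letters and not a measured binding site.

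On the values as deposited, 7 of the 8 genes had a lower value in the *Cxxc1*-deficient library and 1 a higher one, where 60.0% and 37.2% of the 20125 genes above 0 in at least 1 library did. *Kat2b*, *Brd2* and *Kat6a* were at least 2-fold lower, 3 of 8, beside 17.4% of all genes, and 0 of 8 were at least 2-fold higher, beside 5.89%. The share of lower genes was larger at higher levels. Among the 2472 well-expressed genes 95.2% were lower and 56.8% at least 2-fold lower, against 5 and 2 (*Kat6a* and *Brd2*) of the 5 genes in that class here. Between 50 and 100, where *Kat5* lies, 82.6% were lower. Under 50, where *Kat2a* and *Kat2b* lie, 47.8% were lower and 9.75% at least 2-fold lower. The median log2 ratio was -0.45 over the 8 genes and -0.20 over all genes. It was -0.53 over the 5 well-expressed ones and -1.08 over their whole class. The 8 genes summed to 1801 in WT and 1136 in the deficient cells, 0.116% of the summed table in each.

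**Figure D1:**
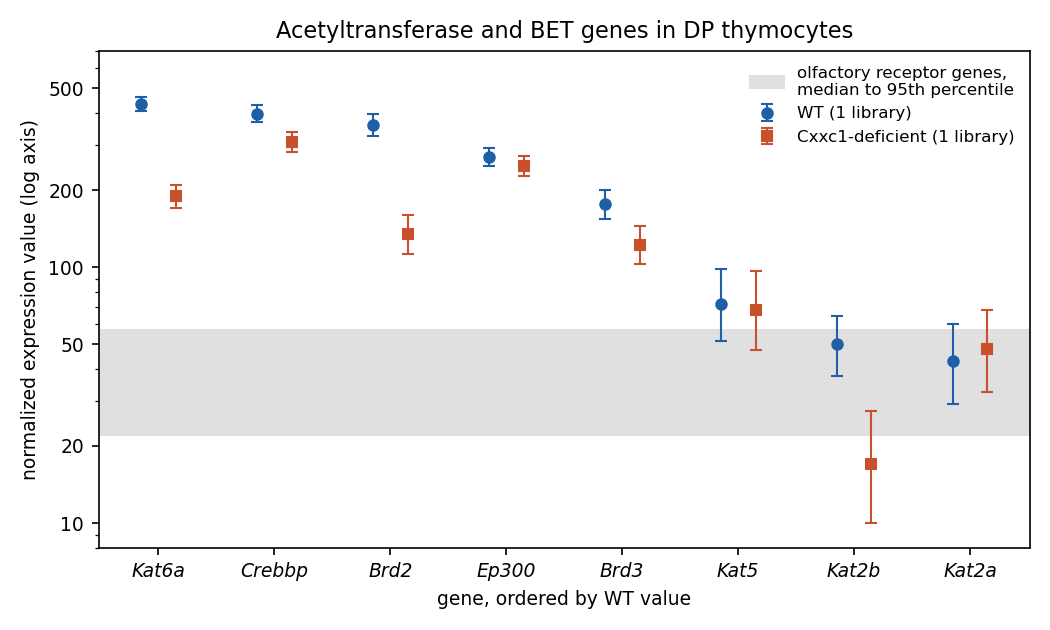
Normalized expression value (log axis) of the 8 genes in the WT library (circles) and the *Cxxc1*-deficient library (squares), ordered by WT value, with bars for approximate 95% counting intervals and a grey band from the median to the 95th percentile of olfactory receptor genes. *Kat2b* is at 50 in WT and at 17, under the band, in the deficient library, while *Crebbp*, *Ep300*, *Kat6a*, *Brd2* and *Brd3* stay above it in both libraries.

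*Crebbp* (chr16:4084048-4213404 in mm9, minus strand) was 398 in WT and 308 in the deficient cells, from about 737 and 492 reads. On the deposited scale it was 1.29-fold lower (1.15 to 1.45). Its rank among all genes moved from 445 to 131. *Ep300* (chr15:81415781-81482507, plus strand) was 270 and 249, 1.08-fold lower (0.959 to 1.23), an interval that includes no difference, and its rank moved from 884 to 217. Its span holds the annotated genes *U6* and *AC160528.1* on the same strand, whose reads may be counted with it. Of the well-expressed genes, 6.07% had a ratio as high as that of *Ep300*, and 11.3% one as high as that of *Crebbp*. Together these coactivators summed to 668 in WT and 557, 1.20-fold lower.

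*Kat2a* and *Kat2b*, which serve the same complexes, lay low in both libraries. *Kat2a* (chr11:100566060-100573779, minus strand) was 43 in WT and 48 in the deficient cells, a ratio of 1.12 (0.663 to 1.90) from about 32 and 31 reads. *Kat2b* (chr17:53706186-53812045, plus strand) was 50 and 17, 2.94-fold lower (1.66 to 5.30) from about 57 and 17 reads. Olfactory receptor genes, which thymocytes do not use, set the background here. Their 1122 members had a median of 22 in WT and 24 in the deficient cells. *Kat2b* was reached by 7.66% of them in WT and by 63.3% in the *Cxxc1*-deficient library, so its value there was at background, and *Kat2a* by 14.8% and 13.0%. *Kat2b* overlaps the antisense gene *Gm6919*, and the library kit is not stated to mark strand, so reads of both cannot be told apart.

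*Kat5* and *Kat6a* encode MYST enzymes. *Kat5* (chr19:5603017-5610050, minus strand) was 72 in WT and 68 in the deficient cells, 1.06-fold lower (0.643 to 1.71) from about 40 and 33 reads. It overlaps *Rnaseh2c* on the other strand, with the same limit. *Kat6a* (chr8:23970007-24053731, plus strand) was the highest of the 8 genes in WT at 432, and 189 in the *Cxxc1*-deficient library. It was 2.29-fold lower (2.03 to 2.59), from about 971 and 366 reads. Its rank stayed at 401 and 399, and 57.9% of well-expressed genes had a ratio at least as high.

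The 2 BET genes of the set were both lower, by different amounts. *Brd2* (chr17:34248965-34259262, minus strand) was 360 in WT and 135 in the deficient cells, 2.67-fold lower (2.19 to 3.29) from about 400 and 129 reads. *Brd3* (chr2:27301099-27363182, minus strand) was 176 and 122, 1.44-fold lower (1.16 to 1.78) from about 235 and 141 reads. *Brd2* moved from rank 530 to 803 and *Brd3* from 1665 to 941. Their summed value was 536 and 257, 2.09-fold lower, where the 6 acetyltransferases summed to 1265 and 879, 1.44-fold lower. Such sums follow the genes of highest value and do not describe each gene: *Kat6a*, 2.29-fold lower, is among the 6.

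**Figure D2:**
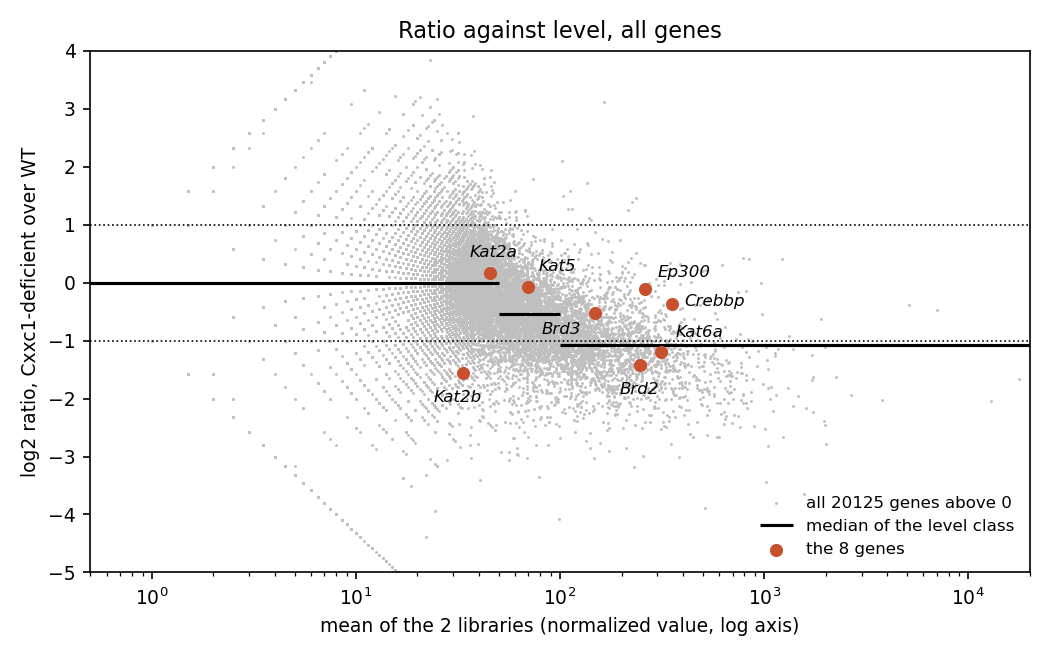
Log2 ratio of the *Cxxc1*-deficient over the WT value (vertical axis, -5 to 4) against the mean of the 2 libraries (log axis) for genes above 0, with the 8 genes in colour, black lines at the median of each level class and dotted lines at 2-fold. *Ep300*, *Crebbp* and *Brd3* lie above the median of -1.08 of well-expressed genes, and *Kat6a* and *Brd2* below it.

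In WT the order of levels was *Kat6a*, *Crebbp*, *Brd2*, *Ep300*, *Brd3*, *Kat5*, *Kat2b* and *Kat2a*. The counting intervals of *Kat6a* and *Crebbp*, of *Crebbp* and *Brd2*, of *Kat5* and *Kat2b*, of *Kat5* and *Kat2a*, and of *Kat2b* and *Kat2a* overlapped. In the *Cxxc1*-deficient library the order was *Crebbp*, *Ep300*, *Kat6a*, *Brd2*, *Brd3*, *Kat5*, *Kat2a* and *Kat2b*, and those of *Brd2* and *Brd3* and of *Kat5* and *Kat2a* overlapped.

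A ratio between genes of the same library does not depend on how the libraries are scaled. It does depend on the levels of the genes, because the fall was larger at higher levels. The median log2 ratio was -0.53 for genes averaging 50 to 100, where *Kat5* lies, and -1.08 for well-expressed genes, where *Kat6a* lies. These ratios were chosen after the values had been seen and are given as a description. *Crebbp* over *Ep300* was 1.47 in WT and 1.24 in the deficient cells, so the ratio changed by a factor of 0.839 (0.709 to 0.997). *Kat2a* over *Kat2b* was 0.86 and 2.82, a factor of 3.28 (1.47 to 7.25). *Kat5* over *Kat6a* was 0.167 and 0.36, a factor of 2.16 (1.31 to 3.62). *Brd2* over *Brd3* was 2.05 and 1.11, a factor of 0.541 (0.399 to 0.725). Between families, *Ep300* over *Kat6a* was 0.625 and 1.32, a factor of 2.11 (1.77 to 2.51), and *Crebbp* over *Brd2* was 1.11 and 2.28, a factor of 2.06 (1.64 to 2.62). Pairs of other genes were not counted, so the counts of pairs given next have no background and do not set the genes of this set apart. Of the 28 possible pairs, 17 had an interval that left out 1, and 7 when the shortest coding transcripts were used to estimate reads. Of the 4 ratios within families, *Kat5* over *Kat6a* then still left out 1 (1.16 to 3.996), while *Crebbp* over *Ep300* (0.658 to 1.08), *Kat2a* over *Kat2b* (0.359 to 26.9) and *Brd2* over *Brd3* (0.192 to 1.75) did not. With those lengths the intervals of the fold of *Kat2b* (0.353 to 22.6) and of *Brd3* (0.673 to 3.46) included 1, while that of *Brd2* (1.32 to 5.46) did not.

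**Figure D3:**
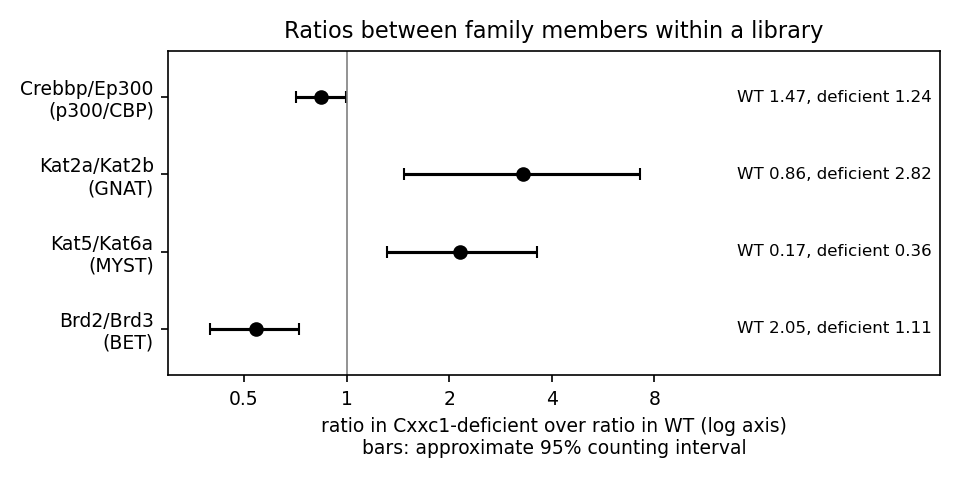
Ratio between the members of each family in the *Cxxc1*-deficient library divided by the same ratio in WT (log axis), with approximate 95% counting intervals and the 2 ratios printed at the right. *Kat2a* over *Kat2b* (3.28) and *Kat5* over *Kat6a* (2.16) lie above 1, and *Brd2* over *Brd3* (0.541) below it. With reads estimated from the shortest coding transcripts the *Kat5* over *Kat6a* interval alone leaves out 1, and *Kat2b* is at background in the deficient library. *Kat5* and *Kat6a* lie in level classes with different median log2 ratios (-0.53 and -1.08).

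The wider acetylation machinery was taken from lists of complexes and related families, 117 genes in all with 115 above 0. Of these 103 were lower and 12 higher, where 60.0% of all genes and 95.2% of well-expressed ones were lower. At least 2-fold lower were 31 (27.0%, beside 17.4% of all genes). The same shares are the background for the counts of each list below. Among the 54 well-expressed ones, 21 were at least 2-fold lower (38.9%, beside 56.8% of that class), and the median log2 ratio was -0.85. The directions are those of the deposited values: the median over all these lists, -0.77, was 0.23 when well-expressed genes were set to the same median.

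Of 12 other acetyltransferases 11 were lower and 3 at least 2-fold (25%, beside 17.4% of all genes). *Taf1*, a subunit of TFIID, was 165 in WT and 66 in the deficient cells, while the coactivator *Ncoa2* was 165 and 184. *Hat1*, which acetylates newly made histone H4, was 167 and 30, 5.57-fold lower (3.03 to 11.3), from about 78 and 12 reads. *Kat8*, the MSL and NSL enzyme, was 59 and 22, from about 23 and 7 reads. In the deficient library *Hat1* lay below the 95th percentile of olfactory receptor genes (57) and *Kat8* below their median (24). *Hat1* and *Kat8* were named after their values had been seen.

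Among the partners of GCN5 and PCAF, 22 of 23 SAGA and ATAC subunits were above 0. Of the detected ones 18 were lower and 2 at least 2-fold lower (9.09%, beside 17.4% of all genes). *Supt20* was 293 in WT and 131 in the deficient cells, and *Dr1*, which the list holds as an ATAC subunit, was 307 and 64, 4.80-fold lower (3.45 to 6.84). *Taf6l* was 12 and 30, both below the 95th percentile of olfactory receptor genes (54.0 in WT and 57). Of the 15 NuA4 genes that are partners of TIP60, 13 were lower and 9 at least 2-fold lower, beside 17.4% of all genes, and 1 was at least 2-fold higher. The 9 include *Ruvbl1* (7 and 0) and *Morf4l2* (28 and 12), and the higher one was *Morf4l1* (0 and 14), all below the 95th percentile of olfactory receptor genes and named after their values had been seen. The 9 also include *Ing3* (83 and 36), *Dmap1* (64 and 28) and *Actl6a* (97 and 45), which lay below it in the deficient library only and were named likewise. In the well-expressed class 4 of 5 were at least 2-fold lower, beside 56.8%. These 15 genes had a median log2 ratio of -1.13, and the log2 ratio of *Kat5* itself was -0.08. The median was -0.82 with a pseudocount of 10. With well-expressed genes set to the same median it was -0.13, and *Kat5* was 0.91. *Mbtd1* was 630 and 180, and *Epc1* was 405 and 185.

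For MOZ, 8 of 9 subunits of its complex and its relatives were lower and 2 at least 2-fold (22.2%, beside 17.4% of all genes). These 2 were *Brd1* at 239 in WT and 90 in the deficient cells and *Ing4* at 206 and 44. The exception, *Brpf3*, was 94 and 106. All 8 detected MSL and NSL subunits were lower, 3 at least 2-fold (37.5%, beside 17.4% of all genes). *Msl1* was 431 and 110 and *Msl2* was 585 and 257.

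Among 26 other bromodomain genes 23 were lower and 7 at least 2-fold (26.9%, beside 17.4% of all genes). *Brwd3* was 455 in WT and 335 in the deficient cells, and the H3K4 methyltransferase *Kmt2a* was 201 and 229. All 14 genes of P-TEFb and elongation were lower, 3 at least 2-fold (21.4%, beside 17.4% of all genes). In the well-expressed class 1 of 6 was at least 2-fold lower, beside 56.8%. The cyclin gene *Ccnt1* was 226 and 188 and *Aff1* was 497 and 275.

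Of 9 CREB and CITED partners of CBP and p300, 8 were lower and 2 at least 2-fold (22.2%, beside 17.4% of all genes). *Creb1* was 359 in WT and 120 in the deficient cells, 2.99-fold lower (2.56 to 3.49), *Cited2* was 189 and 119, and *Cited4* was 23 and 49, below the olfactory receptor 95th percentile in both libraries, on about 7 and 13 reads with a ratio interval of 0.799 to 6.38. Of the 11 histone deacetylases, which remove the mark, 8 were lower and 3 at least 2-fold (27.3%, beside 17.4% of all genes). The 2 well-expressed ones were both at least 2-fold lower, *Hdac7* at 634 and 219 and *Hdac2* at 389 and 89.

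**Figure D4:**
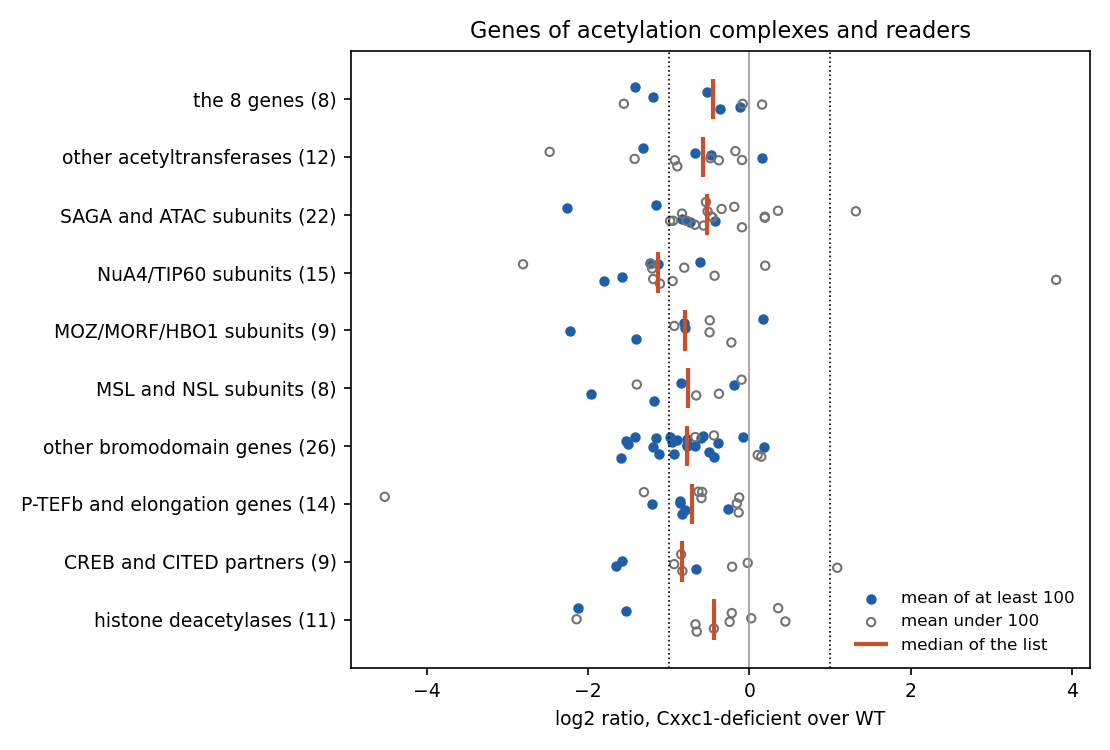
Log2 ratio of the *Cxxc1*-deficient over the WT value for each gene above 0 in the lists of acetylation complexes and readers, with filled points for a mean of at least 100, open points for a lower mean and a bar at each list's median. The NuA4/TIP60 list has the lowest median at -1.13 and the histone deacetylases the highest, at -0.44, close to the -0.45 of the 8 genes. Most deacetylases have a mean under 100, and the 2 well-expressed ones have a median of -1.83.

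The direction of several genes depended on how the libraries were scaled to each other. Over 8 settings *Kat2b*, *Kat6a* and *Brd2* were lower in all 8, with log2 ratios from -4.81 to -0.56, -1.31 to -0.20 and -1.61 to -0.42. *Crebbp*, *Ep300* and *Kat5* were lower in 5 of 8 and *Brd3* in 6, reaching 0.63, 0.88, 0.91 and 0.47 when well-expressed genes were set to the same median, a scaling that raised every ratio by 1.00 on the log2 scale. *Kat2a* was higher in all 8, from 0.13 to 1.16, though only the subtraction of the olfactory receptor median could have turned its direction. The lowest value of *Kat2b* came from subtracting the olfactory receptor median, which put it at the floor of 1 in the *Cxxc1*-deficient library and makes its size arbitrary.

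**Figure D5:**
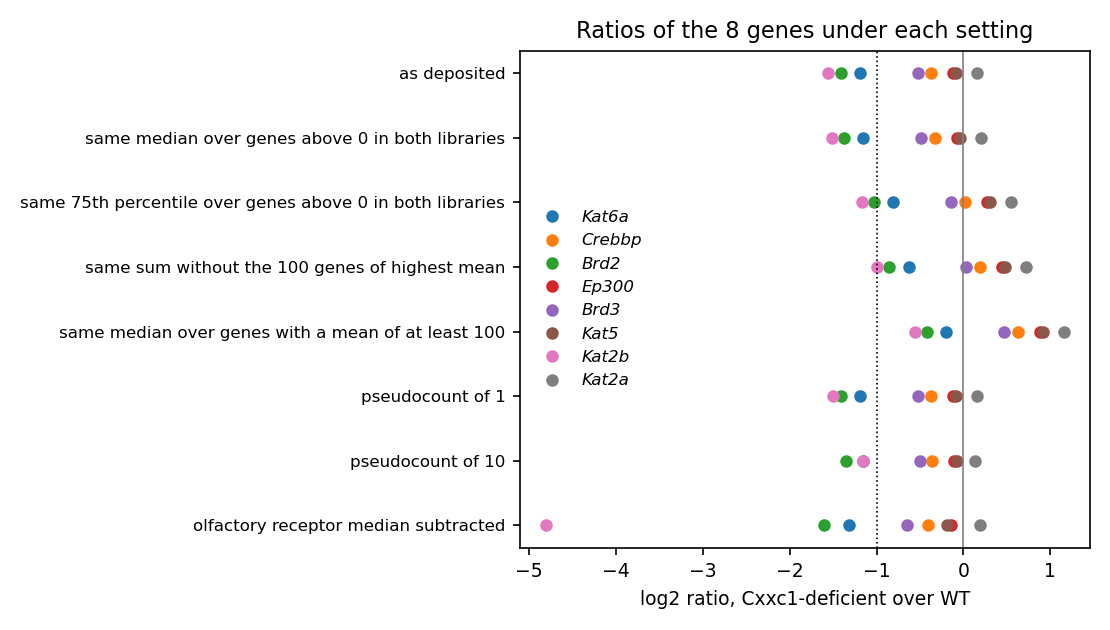
Log2 ratio of the *Cxxc1*-deficient over the WT value for each of the 8 genes under 8 ways of scaling and flooring the values. *Kat2b*, *Kat6a* and *Brd2* stay below 0 throughout, while *Crebbp*, *Ep300*, *Kat5* and *Brd3* cross it.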

How the data were processed

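DP thymocyte mRNA was sequenced with 50-bp reads, 1 library per genotype. Per the study's methods and the submitters' processing notes the authors used CASAVA 1.8.2, Bowtie 1.0.1 and Partek with the mm9 genome. The authors deposited a score per gene, a length-normalized value rounded to whole numbers, which is not a read count, and its unit is not named in the sources used here. From it, with Python 3.11.15, pandas 2.3.3 and scipy 1.17.1, ratios were taken with a floor of 1. Approximate reads came from the steps between values of at most 59 in genes of at most 700 bases with a single annotated length, where 58.2% of 416 WT and 54.5% of 429 *Cxxc1*-deficient values lay within 0.5 of a whole-read step, against 12.8% and 11.0% for any constant. GENCODE vM1 (mm9) gave locations and lengths, and *Kat6a* stands there under its older symbol. Steps were tested on simulated data. No test was made, because each genotype has 1 library. The genes and lists were chosen with earlier results of these data known. The genes named were the 2 of highest mean in each list, the 3 lowest and 3 highest ratios over the lists among genes with a mean of at least 100, and those at least 2-fold higher with a mean of at least 20. A gene that this rule names is not reported here. The pairs, *Hat1*, *Kat8*, *Ruvbl1*, *Morf4l1*, *Morf4l2*, *Ing3*, *Dmap1*, *Actl6a* and the RefSeq promoter starts were chosen after values had been seen. A further promoter motif, that of the factor NRF1, was searched and is not reported here.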

Additional observations from a re-analysis of the deposited data

How the results depend on the processing

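No paired analysis was possible because there is a single library of each genotype, so that no value rests on a test, and for the same reason no library could be left out. Relative to the values as deposited, every log2 ratio was raised by 0.04 with equal medians, 0.39 with equal 75th percentiles, 0.56 with equal sums without the 100 highest genes, and 1.00 with equal medians over well-expressed genes (those averaging 100 or more). Under the last 3, the 8 genes had a median log2 ratio of -0.062, 0.11 and 0.55, and that of the wider lists -0.38, -0.21 and 0.23. The members at least 2-fold lower numbered 2 with equal 75th percentiles, and 0 with the other 2 of these scalings and at a 3-fold limit. Over the 4 scalings the share of all genes at least 2-fold lower was 15.97%, 8.86%, 6.54% and 3.51%, and that of well-expressed genes was 53.4%, 29.8%, 19.1% and 6.39%. The share of all genes was 16.8% with a pseudocount of 1, 11.5% with 10, 37.4% with the olfactory receptor median subtracted, 31.9% at 1.5-fold, 6.30% at 3-fold, 16.2% for genes with a mean of at least 20 and 16.3% for genes above 0 in both libraries. For well-expressed genes it was 51.5% with a pseudocount of 10, 69.8% after subtraction, 81.4% at 1.5-fold, 18.4% at 3-fold, and 34.9% with the class widened to a mean of at least 50. Subtraction gave the wider lists a median of -0.98. Of 163 further values for single genes, pairs, lists and intervals under an alternative, 63 moved and 100 did not. Moved means a gene's ratio out of its counting interval, a list's median or a pair's ratio by over 0.1 on the log2 scale, or an interval across 1. The pairs could not move under the 4 scalings, nor the lists under the shift of 0.04, so the 100 are no measure of stability. The promoter CG count of *Brd3* was 37 or 1 depending on the start, an alternative added after the data had been seen. With 17 to 57 approximate reads, *Kat2a*, *Kat2b* and *Kat5* are limited by depth.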
